A study of Mus musculus with 6 samples.

Results

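The Tiam1 locus was followed as a set of 21 ATAC-seq peaks, out of 123510 in the whole table. Members were the peaks that the authors named Tiam1 and every peak on chromosome 16 (GRCm38) in a window from the 3′ flank of Tiam1 to just past Scaf4, whose outermost peaks started at 89773051 and 90294151. The region was chosen by the KO minus WT difference of an intronic Tiam1 peak in these same 6 libraries, so that the differences between the groups below are a description and not a test of the choice. The authors' names covered 2 peaks as Tiam1, 2 as Sod1 and 5 as Scaf4, and 12 carried no name. Values are log2 read counts that the authors scaled up to the largest library, so a difference of 1 means a doubling of reads.

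Tiam1 (T cell lymphoma invasion and metastasis 1) is a guanine nucleotide exchange factor that loads the small GTPase Rac1 with GTP, and Rac1 in turn drives actin remodelling, cell adhesion, polarity and the production of reactive oxygen species. In the intestine Tiam1 is known as a Wnt-responsive gene of the crypt base and as a modifier of intestinal tumour growth. Accessible sites far from a gene's start, in introns or between genes, often mark enhancers, whereas the peak over a start marks the promoter. An ATAC-seq peak measures how readily a transposase reaches the DNA, and says nothing by itself about transcription of the gene.

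Chromatin accessibility was measured in nuclei of whole small intestinal crypts from male C57BL/6 mice, in 3 wild type libraries (WT) and 3 libraries with Vil-Cre mediated KO of Smarcad1 (KO). Smarcad1 is a SWI/SNF-like chromatin remodeler, and in the KO the Cre, driven by the Villin promoter, deletes floxed exons needed for its ATPase in the intestinal epithelium, while other cells of a crypt preparation keep the gene. The floxed line used came from 1 targeted embryonic stem cell clone. Whether WT mice carried the floxed allele or Cre is not given in the sources used here, nor is the age. Nothing in the labels says that the 3 libraries of a group came from separate mice, so that errors and p-values measure the spread between libraries, which may be technical. Reads in peaks ranged from 4339306 (KO3) to 16301164 (WT3), with the other 4 libraries between 6180717 and 7721797, so that a read in KO3 stands for more of the scaled value than in WT3. Start peaks were present for 9 of 12 epithelial marker genes, with a summed log2 level of 11.5 to 11.9 in WT and 11.4 to 12.1 in KO, whereas Epcam, Vil1 and Krt8 had no peak within 1 kb of the start. Of the leukocyte markers 1 of 8 (Cd3g) had a start peak, at 4.32 to 5.40 in WT and 4.8 to 6.10 in KO, and Ptprc, the pan-leukocyte marker, had none. Since epithelial markers also lacked a start peak, a missing peak does not show that a cell type was absent. Of the stromal and vessel markers 2 of 8 (Col1a1 and Vim) had a start peak, with a summed level of 7.84 to 8.58 in WT and 8.14 to 8.79 in KO. In bulk nuclei a smaller share of cells with an open site and a less open site in every cell cannot be told apart.

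Tiam1 lies on the minus strand from 89787111 to 90143769 (GENCODE vM21), which makes it 356.66 kb long, and most of this length is intron. The annotation holds 14 distinct Tiam1 starts, and only the most upstream, at 90143769, had a peak within 1 kb. Of the others the closest to a peak, at 89960827, lay 1.074 kb from the edge of an intronic peak. Distances below run from the most upstream start, negative into the gene and positive upstream of it. Upstream of Tiam1 the window held Sod1, from 90220754 to 90226329 on the plus strand, which encodes the cytosolic superoxide dismutase, and Scaf4, from 90225680 to 90284503 on the minus strand, which encodes an RNA-binding protein that acts in transcription termination. The peaks were 300 to 4050 bp wide with a median of 1350 bp, against 750 bp for all peaks, and their mean log2 level ranged from 4.71 to 10.3 with a median of 6.86, against 5.77 for all peaks.

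The central 300 bases of the 4 peaks in which the KO and WT values did not overlap are shown because the description of the locus turns on them. The sequence is that of the GRCm38 reference, plus strand, and capitals mark matches on either strand to the motifs searched.
Tiam1 intron at -52.0 kb (lower in KO), chr16:90091576-90091875, + strand: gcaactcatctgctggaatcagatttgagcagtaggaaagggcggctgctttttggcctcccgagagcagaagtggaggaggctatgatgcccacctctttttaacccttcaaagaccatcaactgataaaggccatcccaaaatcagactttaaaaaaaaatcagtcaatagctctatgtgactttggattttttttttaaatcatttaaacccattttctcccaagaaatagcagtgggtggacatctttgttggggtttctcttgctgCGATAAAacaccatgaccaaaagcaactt
Intergenic at +37.8 kb (lower in KO), chr16:90181426-90181725, + strand: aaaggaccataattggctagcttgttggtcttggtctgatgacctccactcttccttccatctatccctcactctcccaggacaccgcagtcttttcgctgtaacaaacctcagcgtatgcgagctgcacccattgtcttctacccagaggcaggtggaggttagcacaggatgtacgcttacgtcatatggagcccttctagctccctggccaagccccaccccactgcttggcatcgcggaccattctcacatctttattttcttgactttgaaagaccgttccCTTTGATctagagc
Tiam1 intron at -181.1 kb (lower in KO), chr16:89962501-89962800, + strand: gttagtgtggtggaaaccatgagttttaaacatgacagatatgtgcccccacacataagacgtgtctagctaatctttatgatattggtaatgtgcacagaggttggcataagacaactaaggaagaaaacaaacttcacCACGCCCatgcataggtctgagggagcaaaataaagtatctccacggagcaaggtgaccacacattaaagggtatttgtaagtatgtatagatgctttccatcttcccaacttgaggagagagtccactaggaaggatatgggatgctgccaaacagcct
Past the 3′ end of Tiam1 at -358.3 kb (higher in KO), chr16:89785276-89785575, + strand: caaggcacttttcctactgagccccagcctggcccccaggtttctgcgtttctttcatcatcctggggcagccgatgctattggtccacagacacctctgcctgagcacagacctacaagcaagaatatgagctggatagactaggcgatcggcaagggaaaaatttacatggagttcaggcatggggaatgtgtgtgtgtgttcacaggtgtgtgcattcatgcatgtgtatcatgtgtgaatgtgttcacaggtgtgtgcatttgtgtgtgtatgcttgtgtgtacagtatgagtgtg

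The motifs searched were those of CDX, HNF4A, GATA, TCF/LEF, KLF and AP-1, factors that act in the intestinal epithelium, and of CTCF, which acts in chromosome folding, and no 2 matches overlapped in the 4 sequences. The intronic peak at -52.0 kb held a match to the CDX letters TTTATNG on the minus strand at bases 272 to 278, counted from 1 at the left end, and such a match was found in the central bases of 13.2% of all peaks. The peak at +37.8 kb held a match to the TCF/LEF letters ATCAAAG on the minus strand at bases 287 to 293, and 4.96% of all peaks held it. At -181.1 kb the intronic peak held a match to the KLF letters GGGNGTG on the minus strand at bases 141 to 147, which 24.2% of all peaks held, and the peak past the 3′ end held no match to any of the 7 motifs. No motif was thus shared by the 3 peaks that were lower in KO, and these letters are a description of the windows, not bound sites. Over the 21 peaks, CDX was matched in 3, TCF/LEF in 1 and KLF in 3. The GATA letters AGATAA were matched in 2 of the 21 and in 16.5% of all peaks. For AP-1 the letters TGANTCA, which read the same on both strands, were matched in 1 of the 21 and in 11.6% of all peaks. HNF4A (CAAAGTCCA) was matched in 0 of the 21 and in 1.31% of all peaks, and CTCF in 0 of the 21 and in 2.51% of all peaks. The GC content of the central bases was 41.7% at -52.0 kb, 51.3% at +37.8 kb, 43.0% at -181.1 kb and 49.3% past the 3′ end, against a median of 48.7% for all peaks and 70.0% for the peak over the Tiam1 start. Repeats covered 23.8%, 13.04%, 17.5% and 27.1% of the whole peaks in the same order, against a median of 16.4% for all peaks.

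Averaged over both groups, the strongest sites of the window were the starts of its genes and an upstream site. On the scale of log2 reads per kb of peak, the highest mean level over the 6 libraries was that of the peak at +53.5 kb (90195901 to 90198600), with 8.61 ± 0.496 (SD, n = 6). That peak overlapped the processed pseudogene Gm49704 and, in the RefSeq annotation, the gene Gm35714. Whether the pseudogene shares reads with other copies was not tested. The peak over the Tiam1 start (90141751 to 90145800) followed with 8.33 ± 0.642, then the peaks over the Scaf4 start (90282751 to 90285900) with 7.74 ± 0.515 and over the Sod1 start (90220201 to 90222150) with 7.72 ± 0.408. The step from the site at +53.5 kb to the Tiam1 start, and that from the Tiam1 start to the Scaf4 start, exceeded 1 SD of the difference within libraries, with the former site higher in 6 of 6 libraries each time. The Scaf4 and Sod1 start peaks did not differ beyond their spread (difference 0.014, SD 0.182). Below the Sod1 start a further step of 0.65 (SD 0.308) led to the peak at +68.1 kb, and none of the remaining neighbours in the order differed by more than 1 SD. The Tiam1 start peak was thus among the most accessible sites, with 98.5% of all peaks at a lower level per kb. The 3 peaks lower in KO ranked 6, 11 and 17. Their low KO values enter these means and push down their places, and an order within WT alone was not made.

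**Figure D1:**
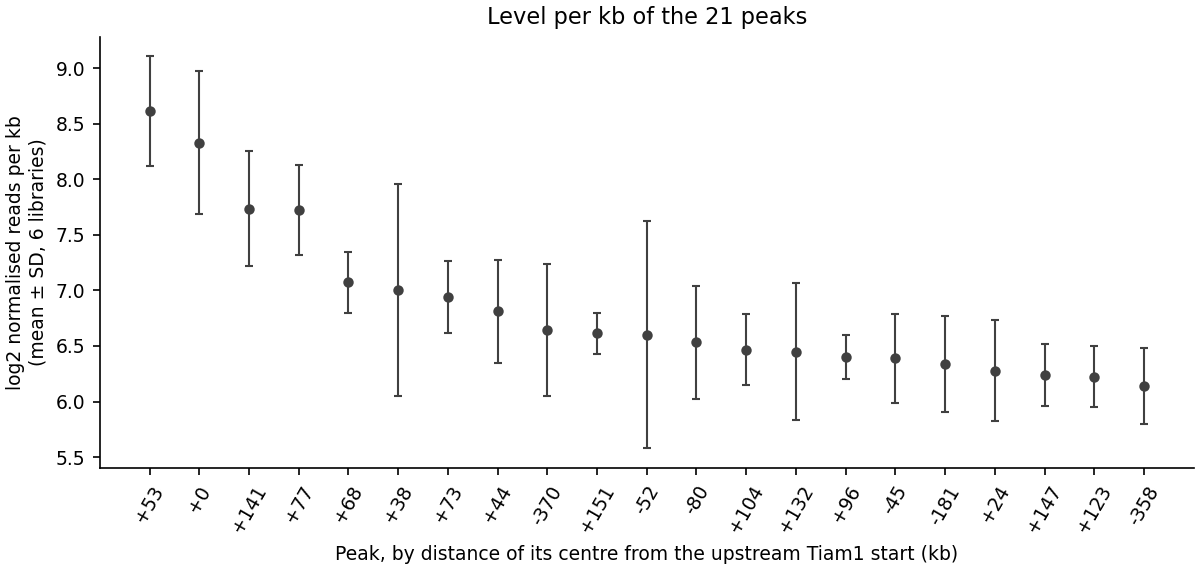
Level of each of the 21 peaks, in log2 normalised reads per kb of peak (vertical axis, mean ± SD over the 6 libraries), ordered from the highest to the lowest and named by the distance of the peak centre from the most upstream Tiam1 start in kb (horizontal axis). The site at +53.5 kb and the Tiam1 start peak stand at 8.61 and 8.33, above the Scaf4 and Sod1 start peaks at 7.74 and 7.72.

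The peak over the Tiam1 start itself had mean levels close to each other in the 2 groups, with a wide spread. Its log2 values were 10.6, 9.53 and 10.9 in WT1, WT2 and WT3, and 10.5, 9.59 and 11.0 in KO1, KO2 and KO3. The values overlapped throughout, and library 2 was the lowest of each group. The difference of KO minus WT was 0.02 (SE 0.467, limma, 95% interval -0.98 to 1.02), an interval that leaves room for a change in either direction. The peak covered the Tiam1 start exon and, in the RefSeq annotation, also the non-coding gene Gm10789 on the opposite strand, whose share of the signal cannot be told apart.

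Inside Tiam1, the intronic peak at -52.0 kb (90090901 to 90092550, without a name in the authors' table) had the lowest difference of the window. Its log2 values were 8.41, 7.16 and 8.78 in WT1, WT2 and WT3, and 6.41, 6.67 and 6.52 in KO1, KO2 and KO3. The 3 KO libraries were all lower than the 3 WT libraries, and WT2 lay nearest to the KO libraries. The mean was 8.12 ± 0.847 for WT and 6.53 ± 0.130 for KO (SD over 3 libraries), a difference of -1.58 (SE 0.369), that is 0.333 times the WT level. The number of reads behind these values ranged from 23 in KO3 to 440 in WT3.

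Upstream of Tiam1, the intergenic peak at +37.8 kb (90180901 to 90182250) differed by nearly as much. Its log2 values were 8.35, 7.34 and 8.86 in WT1, WT2 and WT3, and 6.62, 6.61 and 6.85 in KO1, KO2 and KO3. Again all 3 KO values lay below the WT values and WT2 was the WT library closest to them. The mean was 8.18 ± 0.773 for WT and 6.69 ± 0.140 for KO (SD over 3 libraries), a difference of -1.49 (SE 0.356), that is 0.356 times the WT level, from 29 to 464 reads. Both differences lay beyond the 1st percentile of all peaks, which was -0.79. Over the 6 libraries, 70.2% of all peaks had a lower mean level per kb than the peak at -52.0 kb and 82.9% a lower one than the peak at +37.8 kb. Both means include the low KO values.

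A smaller difference in the same direction was found at the intronic peak at -181.1 kb (89961901 to 89963400), which the authors named Tiam1. Its log2 values were 7.20, 6.79 and 7.65 in WT1, WT2 and WT3, and 6.71, 6.73 and 6.46 in KO1, KO2 and KO3. All KO libraries were the lower ones, but WT2 and KO2 were 0.06 apart. The difference was -0.58 (SE 0.289, 95% interval -1.20 to 0.037), and the limma interval included 0. Without WT3 it was -0.36. The other 2 intronic peaks overlapped between the groups, with differences of -0.45 (SE 0.308) at -44.7 kb (90097951 to 90100200) and -0.14 (SE 0.395) at -79.9 kb (90063751 to 90064050). Both of these carried no name in the authors' table. The peak at -44.7 kb is the nearest neighbour of the lowest peak, and its KO2 value of 7.31 lay above its WT2 value of 7.25.

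The only peak of the window with every KO library above the WT libraries lay just past the 3′ end of Tiam1 (89784601 to 89786250) and was named Tiam1 by the authors. Its log2 values were 6.59, 6.61 and 6.52 in WT1, WT2 and WT3, and 7.39, 7.01 and 7.04 in KO1, KO2 and KO3. The WT values lay within an SD of 0.044, and the KO values were spread more widely, with an SD of 0.211. The difference was 0.58 (SE 0.261), that is 1.49 times the WT level, from 33 to 92 reads. The next peak past the gene's end, at -369.7 kb, differed by -0.08 (SE 0.390), with overlapping values.

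**Figure D2:**
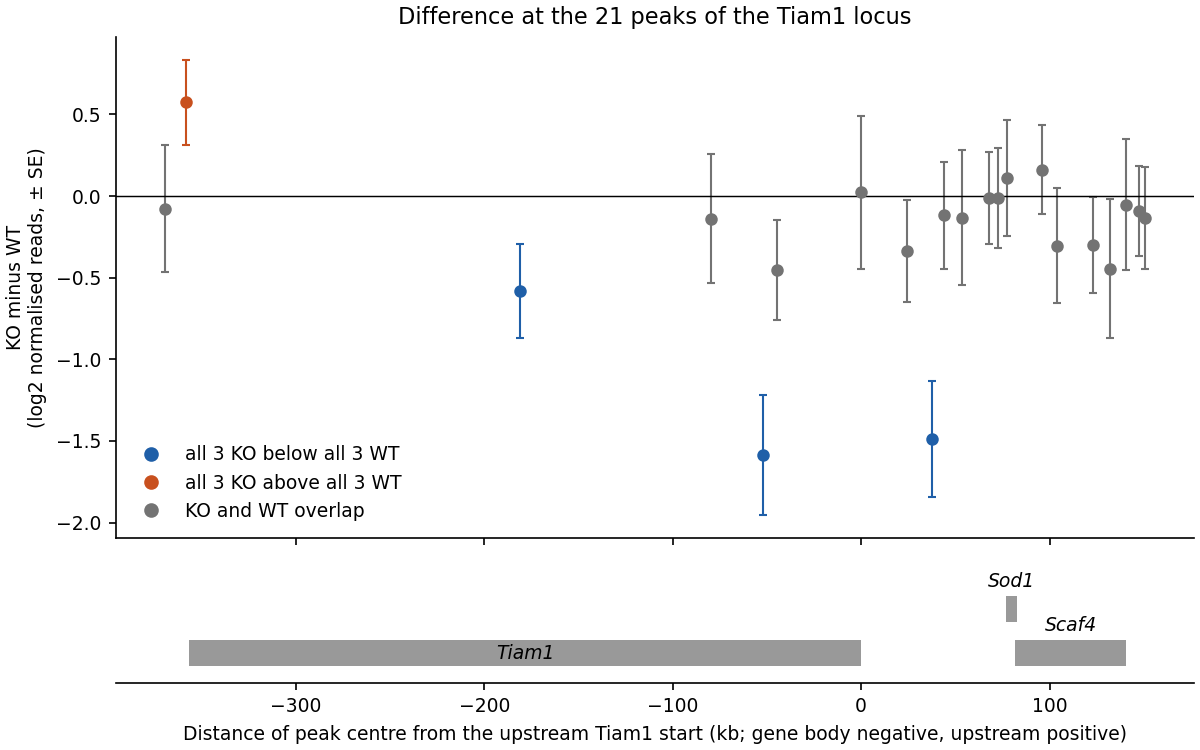
Difference of KO minus WT in log2 normalised reads (vertical axis, limma estimate ± SE, n = 3 libraries a group) at the 21 peaks, against the distance of the peak centre from the most upstream Tiam1 start in kb (horizontal axis), with the spans of Tiam1, Sod1 and Scaf4 below. The peaks at -52.0 kb and +37.8 kb stand at -1.58 and -1.49, with the Tiam1 start peak between them at 0.02.

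**Figure D3:**
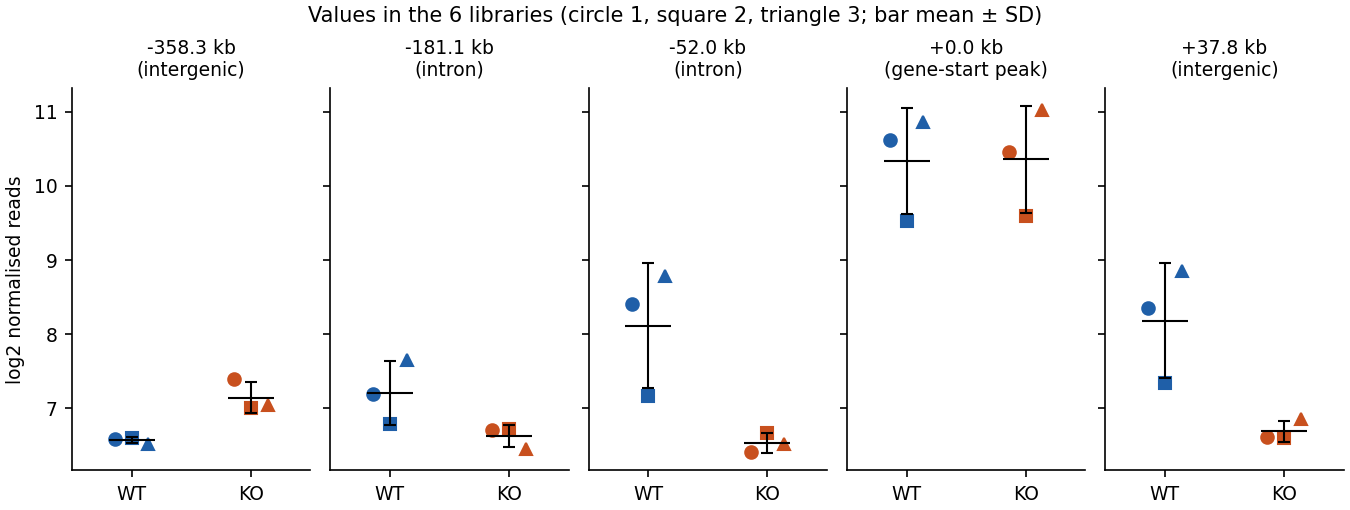
Log2 normalised reads (vertical axis) in each WT and KO library for the 4 peaks whose groups did not overlap and for the Tiam1 start peak, named by distance from the most upstream Tiam1 start; symbols give the library number and the bars the mean ± SD (n = 3). At -52.0 kb and +37.8 kb the KO libraries sit between 6.41 and 6.85 and the WT libraries between 7.16 and 8.86.

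At the starts of the neighbouring genes the groups overlapped. The Sod1 start peak differed by 0.11 (SE 0.355), with log2 values of 8.69, 8.32 and 8.88 in WT and 8.62, 8.24 and 9.36 in KO. The Scaf4 start peak differed by -0.05 (SE 0.403), with values of 9.40, 9.06 and 9.79 in WT and 9.42, 8.61 and 10.1 in KO. At both starts KO3 held the highest and KO2 the lowest value. A small peak over an internal Scaf4 start (90247501 to 90247800) differed by -0.30 (SE 0.351) on 6 to 39 reads, and the intronic Scaf4 peak at +95.9 kb (90239401 to 90239850) by 0.16 (SE 0.271) on 11 to 41 reads. The peak of highest level, at +53.5 kb, differed by -0.13 (SE 0.414), with 10.1, 9.72 and 10.5 in WT and 9.90, 9.35 and 10.7 in KO. Between it and the lower peak at +37.8 kb, the peak at +43.8 kb (90187201 to 90187950) differed by -0.12 (SE 0.328), and on the other side the peak at +24.1 kb (90167551 to 90168150) differed by -0.34 (SE 0.311). The large differences were thus flanked on both sides by peaks whose values overlapped. The remaining 6 peaks, at +68.1, +72.6, +123.0, +132.1, +147.4 and +150.5 kb, had differences from -0.45 to -0.01, all with overlapping values.

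Over the 21 peaks, 3 had every KO library below every WT library and 1 had every KO library above, where 4.10% and 2.70% of all peaks did so. At an unadjusted limma p below 0.05, 2 members were lower in KO and 1 was higher, against 1.37% and 0.909% of all peaks. Since the locus was chosen on this contrast, nothing is read from these counts. After Benjamini-Hochberg adjustment over the 123510 peaks limma called 0 of the 21 peaks, with 0% of all peaks called, 2821 at an unadjusted p below 0.05, and voom on the recovered reads called 0 of the 21 and 3 of all peaks. The paper reported sites that passed its own edgeR test of this experiment. That test was not run here, and what sets the numbers of calls apart was not tested. The absence of calls does not show that accessibility was unchanged. The difference was below 0 at 17 members and above 0 at 4, with a median of -0.13, whereas 53.1% of all peaks lay below 0, with a median of -0.02. For 12 members the difference was within 0.2 of 0. Without KO2 the split was 10 below and 11 above, and without WT3 it was 11 and 10. The median of all peaks rose as well, to 0.083 without KO2 and 0.075 without WT3. The members' median was 0.011 and -0.024 in these settings, still below that of all peaks. The medians of the members and of all peaks thus both rose. The split of all peaks in these settings was not counted. At the window's edges, the outermost members differed by -0.08 (89773051 to 89775000) and -0.13 (90294151 to 90294450), and the nearest peaks outside by -0.22 (89746351 to 89747100) and -0.30 (90322801 to 90323550).

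A view chosen after the values were seen sets each peak against the Tiam1 start peak of the same library. It takes out what a library's scale does to both, but brings in the start peak's own spread. In WT2 the start peak stood at 9.53 and the median of all peaks at 5.63. In WT1 and WT3 the start peak stood at 10.6 and 10.9, and the median at 5.88 and 5.93. How much of the shares below comes from the start peak was not tested. The peak at -52.0 kb then held 21.6%, 19.5% and 23.6% of the start peak's reads in WT1, WT2 and WT3, and 6.03%, 13.2% and 4.41% in KO1, KO2 and KO3. The peak at +37.8 kb held 20.7%, 21.9% and 24.9% in WT, and 6.96%, 12.7% and 5.56% in KO. In these shares WT2 no longer stood apart from WT1 and WT3, while KO2 was the KO library nearest to WT at both peaks. The peak at -181.1 kb held 9.36%, 15.0% and 10.8% in WT and 7.42%, 13.8% and 4.21% in KO, which overlapped. The peak past the 3′ end held 6.12%, 13.2% and 4.94% in WT and 11.9%, 16.8% and 6.32% in KO, which overlapped as well. On the log2 scale the SD of its WT values was 0.044 before the ratio and 0.747 after it. Against the start peak 2 members thus kept every KO library below every WT library, those at -52.0 and +37.8 kb, and 0 had all above.

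**Figure D4:**
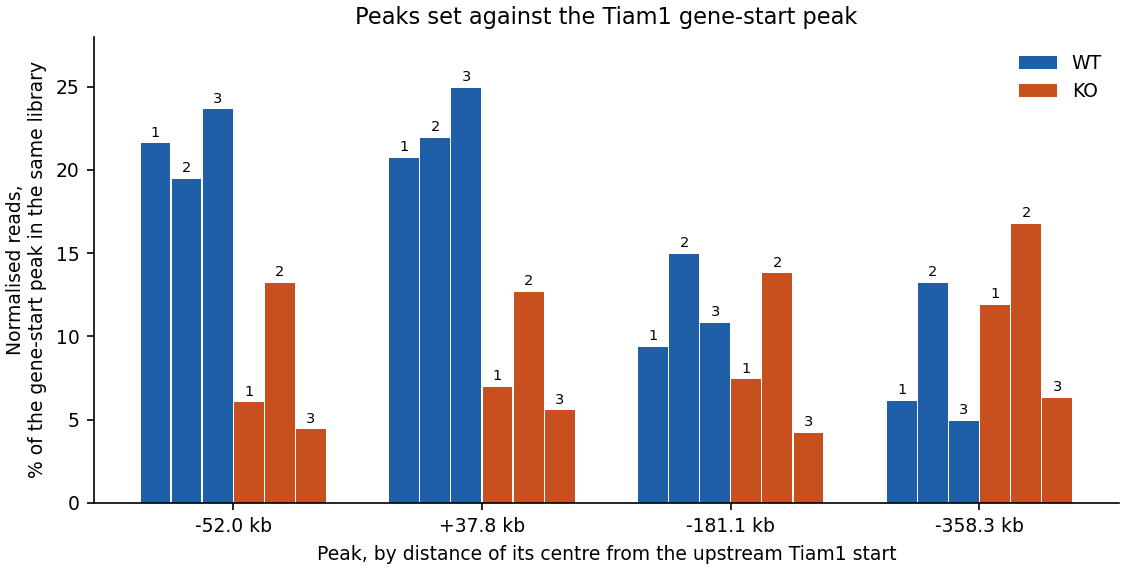
Normalised reads of the 4 peaks as a percentage of those of the Tiam1 start peak in the same library (vertical axis), for each library (bars, numbered 1 to 3; WT blue, KO orange), with peaks named by distance from the most upstream Tiam1 start in kb (horizontal axis). The WT bars at -52.0 and +37.8 kb reach 19.5% to 24.9%, and the KO bars 4.41% to 13.2%.

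The 2 peaks with the lowest differences shared the order of the WT libraries, WT3 above WT1 above WT2, but not that of the KO libraries, where KO2 was the highest at -52.0 kb and the lowest at +37.8 kb. Over the 6 libraries, which share the group difference and each library's scale, Pearson's r between the peaks at -52.0 and +37.8 kb was 0.99, and by this r the upstream peak ranked 19 among the 123509 other peaks of the table. The r of the peak at -52.0 kb was 0.95 with the peak at -181.1 kb (rank 395) and 0.90 with that at -44.7 kb (rank 1341), but 0.31 with the Tiam1 start peak. With the peak past the 3′ end it was -0.84. These values describe 6 points in 2 groups and carry no test. Their SD over the libraries, 1.02 at -52.0 kb and 0.955 at +37.8 kb, was above that of the Tiam1 start peak, at 0.642.

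The library number moved with several of these values. WT2 was the lowest WT library at 13 of the 21 peaks, where it was so at 63.4% of all peaks, and the number 2 library was the lowest of both groups at 8 of the 21, where it was so at 38.9% of all peaks. At the Cd3g start, the single leukocyte marker with a peak, WT2 and KO2 held the highest values of their groups, 5.40 and 6.10, and the KO mean was higher by 0.64, with overlapping values. The summed epithelial markers were lowest in both number 2 libraries, at 11.5 and 11.4. So were the summed stromal and vessel markers, at 7.84 and 8.14, and the medians of all peaks, at 5.63 and 5.69. Not every epithelial marker followed the sum. Krt20 was highest of its group in WT2 (8.41) and KO2 (8.19), and Muc2 was highest in WT2 (7.74) but not lowest in KO2. The other epithelial markers with a start peak were lowest in both number 2 libraries. The part of cell composition or of the library number in the Tiam1 differences was not tested.

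No peak of the other Rac1 pathway genes passed the test, which no peak of the whole table passed. Of 66 genes listed as exchange factors, GTPases, inhibitors and effectors, 54 had peaks named by the authors, 427 in all, Tiam1 not counted. Limma called 0 of these peaks, as it called 0% of all 123510 peaks, so nothing is read from this count. At an unadjusted limma p below 0.05, 7 pathway peaks were higher and 1 was lower in KO. That is 1.64% and 0.234% of them, where 0.909% and 1.37% of all peaks did so. Every KO library lay above every WT library at 18 (4.22%) and below at 5 (1.17%), where 2.70% and 4.10% of all peaks did so, and the median difference was 0.019. Among exchange factors, which load Rac GTPases as Tiam1 does, 226 peaks of 21 genes had differences from -0.83 to 1.25 with a median of -0.012. The GTPases had 10 peaks in 3 genes, with a median of 0.12, the inhibitors 85 peaks in 10 genes, with a median of 0.018, and the effectors and polarity partners 106 peaks in 20 genes, with a median of 0.084.

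The pathway peaks with the smallest p in each direction were in genes of several roles. Farp1, an exchange factor with a FERM domain, had 2 peaks with every KO library above the WT libraries, with differences of 1.07 (SE 0.278, chromosome 14, 121044151 to 121044600) and 1.25 (SE 0.40, 121065901 to 121066200). The former held 4.43, 4.88 and 5.04 in WT and 5.65, 5.84 and 6.08 in KO on the log2 scale. The latter held 4.14, 4.05 and 4.32 in WT and 5.65, 4.52 and 6.08 in KO, so that KO2 lay close to WT3. A peak of Chn2, which encodes the GTPase-activating protein beta-chimaerin, differed by 0.79 (SE 0.278), from 5.18 ± 0.299 to 5.97 ± 0.356. In the other direction, a peak of Vav3, a further Rac exchange factor, differed by -0.83 (SE 0.319), from 5.34 ± 0.216 to 4.51 ± 0.350, with no overlap between the groups. Peaks of Dock4, an exchange factor for Rac1, and Wasf3, a subunit of the WAVE complex that Rac1 activates, differed by -0.70 (SE 0.353) and -0.56 (SE 0.301), with overlapping values. None of these 6 peaks passed the adjustment, with a limma adjusted p of 1 each.

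Among 3304 genes with at least 5 named peaks, those whose mean level over the named peaks was most like that of Tiam1 over the 6 libraries were Mmp12 (Pearson's r 0.99), Lrguk (0.98), Cdyl (0.98), Ntrk2 (0.96) and Cep290 (0.95). Levels were taken relative to each library's median. The mean of Tiam1 rests on its 2 named peaks, those at -181.1 kb and past the 3′ end, whose differences had opposite signs, and leaves out the start peak and the lowest peaks, which carried no name. It ranged from 0.845 in KO3 to 1.23 in KO1, and the 3 WT values, 1.01 to 1.16, lay inside that range, so that the likeness follows KO3 against KO1 and KO2 more than KO against WT.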

How the data were processed

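ATAC-seq libraries of 3 WT and 3 Smarcad1-KO small intestinal crypt preparations were compared. Per the labels and methods, the authors trimmed reads with Trim Galore 0.4.1, mapped them to GRCm38 with Bowtie2 2.2.5, removed duplicates and called 1 peak set with MACS inside SeqMonk. The libraries pooled for peak calling, and any shift of reads for the transposase, are not given in the sources used here. The deposited values are log2 read counts per peak, scaled by the authors to the largest library. A second deposited table, holding the authors' edgeR adjusted p-values for selected peaks, was not used. All columns of per-library values were matched to samples by name.

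The groups and replicate numbers came from the titles. Whole reads were recovered from the spacing of low values, with 99.9951% to 100% of a library's values within 0.1 of a whole read, and gave the depth. Counts of reads are not molecules, so depth covers counting error only. Because the unit is log2, differences were fitted in limma 3.58.1 (R 4.3.3) by lmFit and eBayes with a trend over all 123510 peaks and 6 libraries, two-sided, with Benjamini-Hochberg adjustment and calls below 0.05, in place of the count test planned for counts, and the fit was tested on simulated data. Members, gene lists, motifs and tests were chosen with earlier results of these data known. Peaks were named where they lay within 1 kb of a gene start, did not overlap between groups, had 1 of the 3 highest or 3 lowest differences, or 1 of the 3 highest levels per kb; other members stand beside them as neighbours or in ranges. Pathway peaks were the 3 of smallest p in each direction. Gene positions came from GENCODE vM21, RefSeq was used for overlaps, and motifs were matched in the central 300 bases of every peak. The alternatives were 4 other scalings, voom, a pseudocount of 5, a minimum mean of 64, a replicate block, leaving out each library, the ratio to the Tiam1 start peak (added after seeing the data), only the peaks named Tiam1, and pathway genes within 5 kb of a peak.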

Additional observations from a re-analysis of the deposited data

How the results depend on the processing

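The differences at -52.0 kb and +37.8 kb kept their sign in 15 of 15 alternatives, including the ratio to the Tiam1 start peak chosen after seeing the data, as did those at -181.1 kb and past the 3′ end. These peaks were named because their groups did not overlap, so leaving out 1 library could not change the sign. The replicate block leaves the estimate itself unchanged. The kept sign is thus no check, and only the size of the differences is informative. At -52.0 kb the difference ranged from -2.06 (without WT2) to -1.25 (without WT3), and at +37.8 kb from -1.91 to -1.15 without the same libraries. At -181.1 kb it was -0.80 without WT2 and -0.36 without WT3, and past the 3′ end it ranged from 0.45 (without KO1) to 0.64 (without KO2). At the Tiam1 start peak it ranged from -0.38 (without WT2) to 0.41 (without KO2) and kept its sign in 10 of 14. The median difference of the 21 peaks ranged from -0.35 (without KO3) to 0.011 (without KO2) when a library was left out, and was -0.33 without WT2. The number of all peaks called by limma, 0, became 2 with median centring, 2 with the trimmed mean of M values, and 3 each with quantile normalization, total scaling and voom. Leaving out 1 library gave 0 to 30 calls, 30 of them without KO2 and 1 without WT3. With the replicate block limma called 272 peaks (199 higher, 73 lower), and 2 of the 21 peaks, those at -52.0 and +37.8 kb. The deviations of same-numbered libraries correlated at 0.036, 0.418 and 0.407 over all peaks, so the numbers could not be taken to pair the samples. No Rac1 pathway peak was called in any alternative, also when genes within 5 kb were used. Few of all 123510 peaks were called in any of them, at most the 272 with the replicate block. Low peaks of 5 to 49 reads limit what can be seen at the Scaf4 introns; the causes of these shifts were not tested.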
